A study of Mus musculus with 8 samples.

Results

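The 8 transcription factors Runx1, Runx2, Runx3, Sp7, Dlx3, Dlx5, Dlx6 and Atf4, which have known roles in bone formation, were followed through the cell types of the petrous temporal bone (PTB), the bone that encloses the inner ear. They were chosen by gene symbol, as 8 of the 32285 genes counted. The study asked what loss of a copy of Tbx1, a T-box gene of the region deleted in 22q11.2 deletion syndrome, does to this bone and to the cerebellar lobules beside it, the paraflocculus/flocculus (PF/F). Nuclei of the PTB of mice at postnatal day 5.5 (P5.5) were sequenced in 4 libraries, 2 wild-type (WT) and 2 of mice with a single working copy of Tbx1 in all cells (Tbx1+/-). Each library held a pool of 5 mice, and libraries 1 and 2 of each genotype came from separate batches of animals. Both genotypes shared the age and the C57BL/6J background, and the labels name no treatment. The authors' annotation divided 31076 of the PTB nuclei into 15 types: connective tissue (CT1 to CT4), chondrocyte progenitors (CP1 to CP6), matured chondrocytes, hypertrophic chondrocyte/osteoblasts, osteoblasts, matured osteoblasts/osteocytes and osteoclasts.

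RUNX proteins bind DNA through the Runt domain as partners of CBFβ. Runx2 is required for osteoblasts to form and also drives chondrocyte hypertrophy, and Sp7 (osterix), a zinc finger factor, acts after it in the osteoblast lineage. Runx1 is best known from blood formation, and Runx3 shares the work of Runx2 in maturing chondrocytes. Dlx3, Dlx5 and Dlx6 are homeobox genes of the distal-less family that act in the facial skeleton and in bone, and Atf4, a bZIP factor whose amount is set largely by translation, serves amino acid supply and late osteoblast function.

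In GRCm38, the build of the counts, Runx2 lies on chr17:44495987-44814797 (minus strand), Runx1 on chr16:92601466-92826149 (minus) and Runx3 on chr4:135120652-135177990 (plus). Sp7 lies on chr15:102356606-102367182 (minus), Atf4 on chr15:80255184-80257541 (plus) and Dlx3 on chr11:95120119-95125296 (plus). Dlx5 on chr6:6877805-6882085 (minus) and Dlx6 on chr6:6863334-6868568 (plus) are neighbours with 9236 bases between the gene bodies. Since nuclear reads in introns were counted and the gene bodies run from 2358 bases (Atf4) to 318811 bases (Runx2), levels are compared below between cell types and libraries, not between genes.

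RefSeq starts can lie some bases inside the gene bodies given above. The 3 Runx genes are paralogs whose highest PTB type differed by mean level, with hypertrophic chondrocyte/osteoblasts second for each, and the 250 bases before the upstream start of each, from RefSeq on GRCm38.p6, are shown to set these starts side by side. Capitals mark the core that RUNX proteins bind, TGTGGT or its reverse complement ACCACA.
Runx2, chr17:44814628-44814877, minus strand: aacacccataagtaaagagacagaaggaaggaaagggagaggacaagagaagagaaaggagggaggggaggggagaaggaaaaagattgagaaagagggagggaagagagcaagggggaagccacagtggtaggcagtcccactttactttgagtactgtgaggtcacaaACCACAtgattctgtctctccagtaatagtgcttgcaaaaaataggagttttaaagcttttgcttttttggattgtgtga
Runx3, chr4:135120395-135120644, plus strand: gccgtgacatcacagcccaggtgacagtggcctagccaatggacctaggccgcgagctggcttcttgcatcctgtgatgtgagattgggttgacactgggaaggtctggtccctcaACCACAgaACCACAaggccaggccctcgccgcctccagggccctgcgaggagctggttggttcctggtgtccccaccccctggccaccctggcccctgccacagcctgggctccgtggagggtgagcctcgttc
Runx1, chr16:92826075-92826324, minus strand: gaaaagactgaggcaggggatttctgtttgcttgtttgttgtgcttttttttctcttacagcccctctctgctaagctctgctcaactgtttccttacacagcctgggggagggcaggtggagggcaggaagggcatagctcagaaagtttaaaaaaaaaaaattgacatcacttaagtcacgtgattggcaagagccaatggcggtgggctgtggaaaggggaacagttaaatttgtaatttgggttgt
The Runx2 window held 1 match, 80 bases before the start, and the Runx3 window 2 matches, 134 and 126 bases before it. No match stood in the Runx1 window, nor in the window of the second start of Runx1 or of Runx3. Among 32851 windows of the same length, 14.0% held at least 1 match on either strand. The homeodomain core TAATTA and the C/EBP-ATF element TGATGNAA were in none of the 6 windows read for Runx1, Runx2, Runx3 and Atf4. There were 3 GC boxes (GGGCGG or CCGCCC) in the window of the second Runx3 start, at 161, 48 and 16 bases before it, and GC boxes were in 32.7% of all windows.

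The libraries held 66835028 to 88677309 UMIs (unique molecular identifiers, a tag per captured molecule) and 5981 to 9977 annotated nuclei, with medians of 3853 to 4758 UMIs per nucleus. Levels are counts per 1000000 UMIs (CPM) of the summed nuclei of a type, as mean ± SD over the 4 libraries unless said otherwise. Tbx1 itself was at 38.9 and 39.4 CPM in the WT libraries and at 26.3 and 35.7 CPM in the Tbx1+/- libraries over all annotated nuclei. Pairs of libraries shared 45 to 82 barcodes, at most 0.601% of the smaller library. WT library 1 stood apart in abundant transcripts, with 876 CPM of haemoglobin RNA against 419 to 631 CPM and 1.43% mitochondrial UMIs against 0.604% to 1.02%.

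The type names were checked against marker genes. Osteoblasts and matured osteoblasts/osteocytes had the highest sums of 12 osteoblast markers, 32370 ± 9121 and 36962 ± 12661 CPM, with 46045 CPM and 55758 CPM in WT library 1 alone. Dmp1, an osteocyte gene, stood at 1761 CPM in matured osteoblasts/osteocytes and at 228 CPM in osteoblasts. The osteoclast protease Ctsk was at 4606 CPM in osteoclasts and at no more than 496 CPM elsewhere. In hypertrophic chondrocyte/osteoblasts the hypertrophy collagen Col10a1 was low, 42.4 CPM against 192 CPM in matured chondrocytes. The collagenase gene Mmp13 was at 1923 CPM there and the matrix protein gene Spp1 at 4827 CPM. Over the 12 osteoblast markers this type summed to 16341 CPM, beside 14857 CPM in matured chondrocytes and 32370 CPM in osteoblasts. Over 13 cartilage markers it summed to 3270 CPM, against 20440 CPM in matured chondrocytes. This type is also called by its annotated name only. CP1 carried little of some of the cartilage genes its name calls for. Col2a1 was at 699 CPM there against 1818 CPM in CP5 and 3664 CPM in matured chondrocytes, and Sox9 at 29.6 CPM, whereas Alpl, the alkaline phosphatase of mineralising cells, reached 538 CPM, against 644 CPM in osteoblasts. Over 13 cartilage markers, however, CP1 summed to 4891 CPM, within the 2998 to 7025 CPM of the 6 CP types, while osteoblasts reached 10689 CPM and matured chondrocytes 20440 CPM. Over the 12 osteoblast markers CP1 summed to 12684.5 CPM, beside 12797.6 CPM in CT1 and 11781 CPM in CP4, and below the 32370 CPM of osteoblasts. CP1 is therefore called by its annotated name only. Some types had high sums over marker lists of cells other than those they are named for. How far each of these sums rests on a single gene is not given. CP6 had the most neural and glial markers of the 15 types, 1964 ± 100.3 CPM over 8 genes against 745 CPM in CP3, the next, and the most endothelial markers, 1094 ± 59.8 CPM over 6 genes against 301 CPM in CT2. CT4 held 2162 ± 559 CPM of 9 osteoclast markers, more than any type but osteoclasts (11783 CPM), and its sum of 8 connective tissue markers, 1300 CPM, was below the 2296 CPM of CP1. Matured chondrocytes had the most of 6 erythroid markers, 935 to 13323 CPM over the libraries, and osteoclasts the most of 6 muscle markers, 863 ± 146 CPM. The part of these other cells' markers in the levels given for CP6, CT4, matured chondrocytes and osteoclasts was not tested.

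The 8 factors did not share a pattern, and by the means of the 4 libraries the highest type was hypertrophic chondrocyte/osteoblasts, osteoblasts or matured osteoblasts/osteocytes for 2 of the 8. Sp7 and Dlx3 were highest in osteoblasts and in matured osteoblasts/osteocytes, respectively. Runx2, Dlx5 and Dlx6 were highest in CP1, Runx1 in osteoclasts, Runx3 in CT3 and Atf4 in matured chondrocytes. For Runx1, Runx2, Sp7, Dlx3 and Dlx5 the same type led in each of the 4 libraries, while hypertrophic chondrocyte/osteoblasts led for Dlx6 in WT 1 and for Runx3 in Tbx1+/- 1 and WT 2, and osteoblasts for Atf4 in WT 2. Without Tbx1+/- 2 the Runx3 mean was highest in hypertrophic chondrocyte/osteoblasts, and without the 8% of nuclei with most UMIs the Atf4 mean was highest in osteoclasts. These orders are descriptions without a test, because the types were made from the same nuclei.

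**Figure D1:**
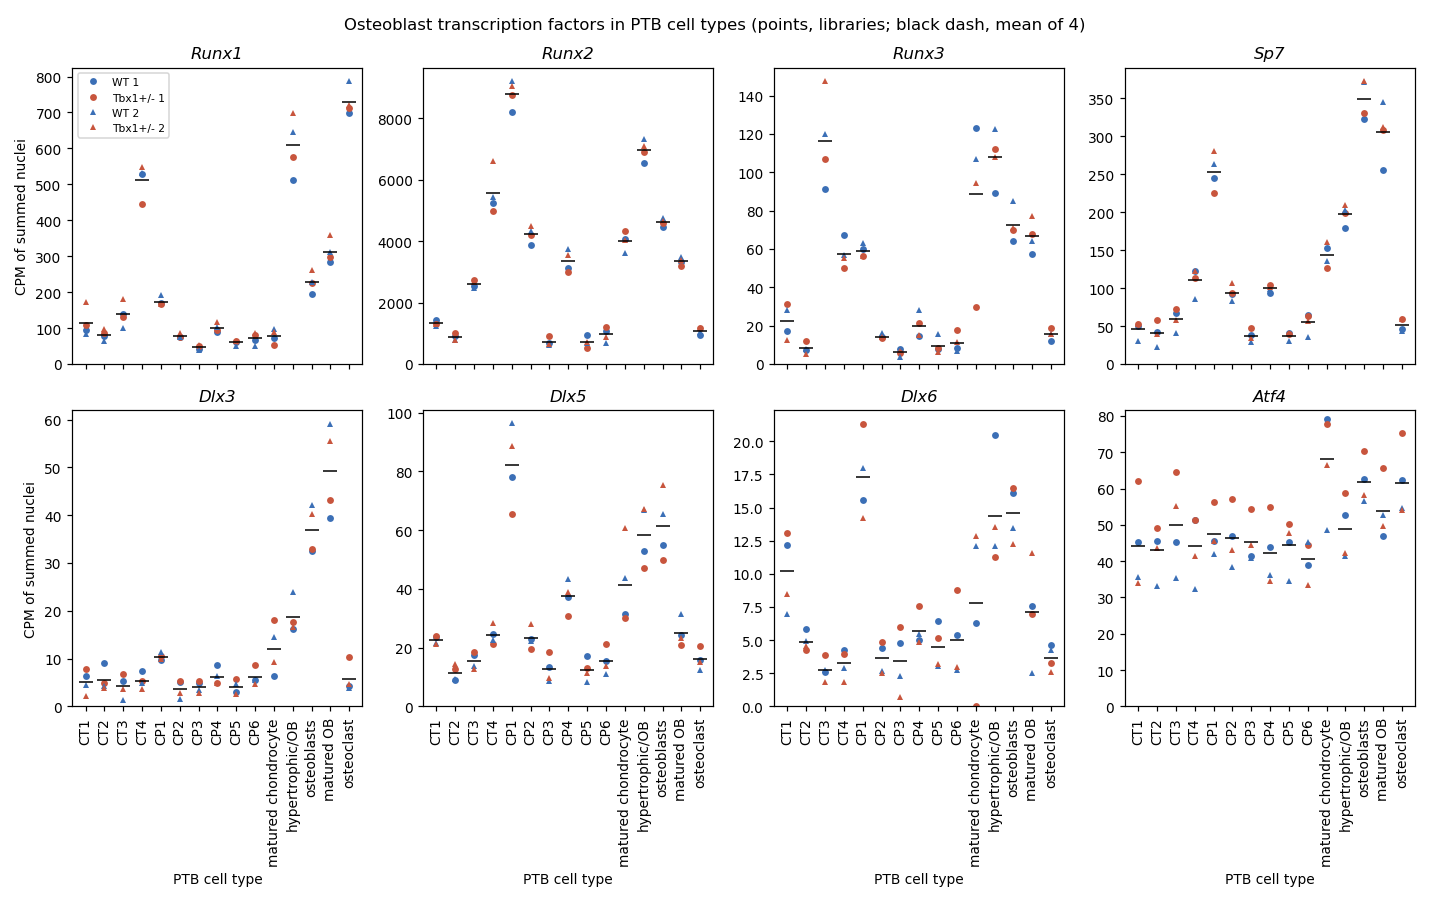
Level of each gene in the 15 PTB types, a panel per gene, with CPM of summed nuclei on a linear axis from 0; circles are libraries 1, triangles libraries 2, blue WT and red Tbx1+/-, and black dashes the means of the 4 libraries. Sp7 and Dlx3 peak among the osteoblast types at 350 and 49.3 CPM, Runx2 and Dlx5 peak in CP1 at 8806 and 82.2 CPM, and Atf4 is nearly level, between 40.5 and 68.1 CPM.

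Runx2, the factor without which osteoblasts do not form, had its highest mean at least 12.3 times its lowest, which was at the level of reference barcodes of other cells described further on. In CP1 it stood at 8200 CPM in WT 1, 8754 CPM in Tbx1+/- 1, 9222 CPM in WT 2 and 9049 CPM in Tbx1+/- 2. CP1 was the highest type in all 4 libraries, and its lowest library was above every library of the next type. Hypertrophic chondrocyte/osteoblasts followed at 6974 ± 329 CPM, then CT4 at 5571 ± 716 CPM, whose ranges overlapped. Osteoblasts were next, at 4631 ± 126 CPM, with 4471, 4608, 4771 and 4674 CPM in WT 1, Tbx1+/- 1, WT 2 and Tbx1+/- 2. The libraries thus spread little within osteoblasts, and CP1 was 1.83 to 1.94 times higher within each of them. Matured osteoblasts/osteocytes were lower than osteoblasts in all 4 libraries, at 3341 ± 120 CPM. CP2 (4233 ± 257 CPM), matured chondrocytes (4006 ± 301 CPM) and CP4 (3348 ± 360 CPM) lay between, each overlapping its neighbour in the order. At the low end, CP3 (717 ± 131 CPM) and CP5 (716 ± 167 CPM) did not differ beyond their spread.

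Sp7, which acts downstream of Runx2 in osteoblast formation, put the same types in another order. In osteoblasts its level was 323 CPM in WT 1, 331 CPM in Tbx1+/- 1, 371 CPM in WT 2 and 373 CPM in Tbx1+/- 2, from 2294 to 3019 UMIs a library. Osteoblasts led in each of the 4 libraries, and both libraries of batch 2 were above both of batch 1. Matured osteoblasts/osteocytes followed at 305 ± 36.9 CPM and CP1 at 253 ± 23.7 CPM. The ranges of these neighbours overlapped, although osteoblasts were above matured osteoblasts/osteocytes, and these above CP1, in 4 of 4 libraries. Hypertrophic chondrocyte/osteoblasts were lower, at 198 ± 12.8 CPM, without overlap with CP1, and matured chondrocytes at 144 ± 15.9 CPM. CP3, the lowest type, was at 37.3 ± 7.73 CPM.

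Set against Runx2 within each type, Sp7 was highest in matured osteoblasts/osteocytes and in osteoblasts. There were 91.3 ± 10.2 Sp7 UMIs per 1000 Runx2 UMIs in matured osteoblasts/osteocytes and 75.4 ± 3.97 in osteoblasts, where every library lay between 71.8 and 79.8. In CP1 the ratio was 28.8 ± 2.27 and in hypertrophic chondrocyte/osteoblasts 28.4 ± 0.971. Both types with most Runx2 thus lay below osteoblasts in each library, at 25.7 to 31.0 and 27.4 to 29.5. Lower means were those of CT4 (20.1 ± 3.70), CP2 (22.1 ± 2.20) and CT3 (22.7 ± 4.78). The 4 types with least Runx2, CP5, CP3, CT2 and CP6, had ratios of 54.5 ± 15.3, 51.9 ± 3.52, 45.7 ± 12.0 and 57.2 ± 5.48. These lie beside the ratios of barcodes that the annotation left out, grouped by marker lists of other cells, 52.7 ± 9.46 for neural and glial markers, 59.8 ± 10.1 for endothelial markers, 43.5 ± 1.27 for immune markers and 70.0 ± 25.4 for epithelial markers. The immune list was itself high in CP5 and CT1, as given further on. The epithelial group, of 658 barcodes, was at 107 in Tbx1+/- 1, above osteoblasts, and at 53.0 to 66.7 in the other 3 libraries. Free RNA in the droplets gives all nuclei of a library the same ratio of its genes, and its part in the values of these 4 types was not tested.

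**Figure D2:**
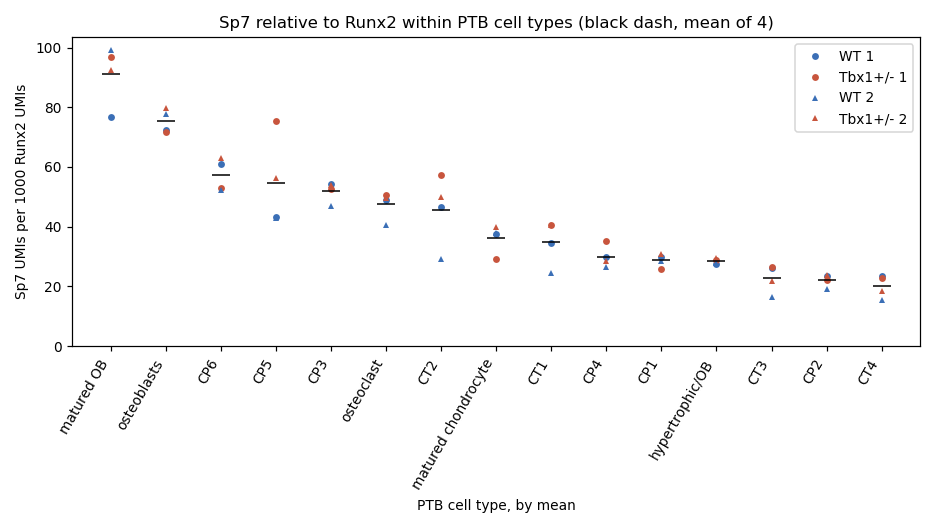
Sp7 UMIs per 1000 Runx2 UMIs in each PTB type, types ordered by their mean, with a point per library (circles, libraries 1; triangles, libraries 2; blue, WT; red, Tbx1+/-) and black dashes for means. Matured osteoblasts/osteocytes (91.3) and osteoblasts (75.4) stand above CP1 (28.8) and hypertrophic chondrocyte/osteoblasts (28.4), the types with the highest Runx2 levels. CT4 (20.1) is lowest.

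Runx1, known mainly from blood cells, was highest outside the osteoblast lineage. Osteoclasts, which descend from blood progenitors, held 699, 713, 787 and 721 CPM in WT 1, Tbx1+/- 1, WT 2 and Tbx1+/- 2. Each of these values was above all values of the next type, hypertrophic chondrocyte/osteoblasts, at 609 ± 80.8 CPM, with 513, 577, 646 and 698 CPM in the same order of libraries. CT4 was next, at 512 ± 46.1 CPM. Matured osteoblasts/osteocytes (313 ± 32.3 CPM) and osteoblasts (227 ± 27.2 CPM) followed, and hypertrophic chondrocyte/osteoblasts were 2.56 to 2.83 times above osteoblasts within libraries. There were 49.0 ± 5.12 Runx1 UMIs per 1000 Runx2 UMIs in osteoblasts and 19.7 ± 1.18 in CP1.

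Runx3, which overlaps with Runx2 in maturing cartilage, had no type that led in all libraries. CT3 was at 91.3, 107, 120 and 147 CPM in WT 1, Tbx1+/- 1, WT 2 and Tbx1+/- 2, and hypertrophic chondrocyte/osteoblasts at 89.0, 112, 123 and 108 CPM. The ranges of both overlapped, and the highest type was matured chondrocytes in WT 1, hypertrophic chondrocyte/osteoblasts in Tbx1+/- 1 and WT 2, and CT3 in Tbx1+/- 2. Matured chondrocytes were spread from 30.0 to 123 CPM, and the low value came from 5 UMIs in 48 nuclei of Tbx1+/- 1. Osteoblasts (72.5 ± 8.85 CPM), matured osteoblasts/osteocytes (66.6 ± 8.31 CPM), CP1 (58.9 ± 3.27 CPM) and CT4 (57.3 ± 7.28 CPM) formed a middle group, and CP3 was lowest at 6.05 ± 1.90 CPM.

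Among the homeobox genes, Dlx3, a gene of hair, tooth and bone, was higher in matured osteoblasts/osteocytes than in osteoblasts. It stood at 39.5, 43.2, 59.1 and 55.5 CPM in matured osteoblasts/osteocytes of WT 1, Tbx1+/- 1, WT 2 and Tbx1+/- 2, from 47 to 67 UMIs a library. These libraries were 1.21 to 1.40 times above the osteoblasts of the same library (37.0 ± 4.91 CPM), though the ranges overlapped. Hypertrophic chondrocyte/osteoblasts followed at 18.6 ± 3.62 CPM. In CP1, where Runx2 and Dlx5 were highest, Dlx3 was at 10.4 ± 0.797 CPM, below osteoblasts in each library.

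Dlx5, a homeobox gene that acts before and during osteoblast formation, went the other way. In CP1 it was at 78.0, 65.5, 96.5 and 88.6 CPM in WT 1, Tbx1+/- 1, WT 2 and Tbx1+/- 2, from 237 to 320 UMIs. CP1 was above osteoblasts (61.4 ± 11.3 CPM) by 1.18 to 1.47 times in each library, with overlapping ranges. Osteoblasts and hypertrophic chondrocyte/osteoblasts (58.5 ± 10.1 CPM) did not differ beyond their spread. Matured osteoblasts/osteocytes were at 25.0 ± 4.56 CPM, and osteoblasts were 2.08 to 3.24 times higher in the same libraries.

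Dlx6, the partner of Dlx5 on chromosome 6, was sparse, with 15.6, 21.3, 18.0 and 14.2 CPM in CP1 of WT 1, Tbx1+/- 1, WT 2 and Tbx1+/- 2, from 39 to 77 UMIs. Osteoblasts (14.6 ± 2.03 CPM), hypertrophic chondrocyte/osteoblasts (14.3 ± 4.18 CPM) and CT1 (10.2 ± 2.90 CPM) overlapped with CP1 or with each other, and no neighbours in the order were apart. In matured chondrocytes of Tbx1+/- 1 it was at 0 UMIs in 48 nuclei, where 3 counts would be 18.0 CPM.

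Atf4, a factor of the amino acid and stress response, was close to level. Matured chondrocytes were at 68.1 ± 14.2 CPM, osteoblasts at 61.9 ± 6.21 CPM, osteoclasts at 61.6 ± 9.90 CPM and CP6, the lowest, at 40.5 ± 5.48 CPM, a 1.68-fold range. Tbx1+/- 1 was the highest library in osteoblasts, with 70.4 CPM against 62.7 CPM in WT 1, 56.5 CPM in WT 2 and 58.2 CPM in Tbx1+/- 2. No neighbouring types were apart beyond their spread.

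A level in sparse droplet data is only read against what droplets of other cells hold. As a reference served PTB barcodes outside the annotation that carried mostly neural and glial markers (4766 barcodes) or endothelial markers (2510 barcodes). They met quality limits set here after the study's methods, so some may lie outside the nuclei that the study kept. For each library the higher of both groups was taken. Runx2 was above it in all 4 libraries in 10 of the 15 types, Runx3 and Dlx5 in 9, Sp7 in 8, Runx1 in 7, Dlx3 in 5, Dlx6 in 4 and Atf4 in 3. Only in osteoblasts were all 8 genes above this reference in every library. There the mean was 6.48 times the reference for Sp7, 6.09 for Runx3, 5.28 for Dlx3, 5.11 for Runx2, 3.95 for Dlx5, 2.70 for Dlx6, 2.44 for Runx1 and 1.29 for Atf4. CT2, CP3, CP5 and CP6 were above the reference in all libraries for none of the 8, and Runx2 at 716 to 961 CPM in these types was not told from this reference. CP6 itself had the highest sums, among the 15 types, of the neural and glial and the endothelial marker lists that define this reference, as given above. Runx2, Sp7 and the Dlx genes in osteoclasts were not told from this reference either. These counts depend on the reference. By mean, Runx2 was at 430 ± 91.8 CPM in the 658 left-out barcodes with epithelial markers and at 1173 ± 310 CPM in the 741 with muscle markers. The former value is below, and the latter above, the 716 to 961 CPM of CT2, CP3, CP5 and CP6. With the 8984 left-out barcodes that carried immune markers added to the reference, a choice made after seeing the data, the types above it were 9 for Runx2, 8 for Sp7, 7 for Runx3, 5 for Dlx5, 4 for Runx1, 4 for Dlx6, 3 for Dlx3 and 3 for Atf4, and Runx1 in osteoblasts was no longer above it. The immune list of 10 genes also summed to 4916 CPM in CP5 and 4814 CPM in CT1, above the 1530 CPM of osteoclasts. The barcodes that carry it need not be immune cells.

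**Figure D3:**
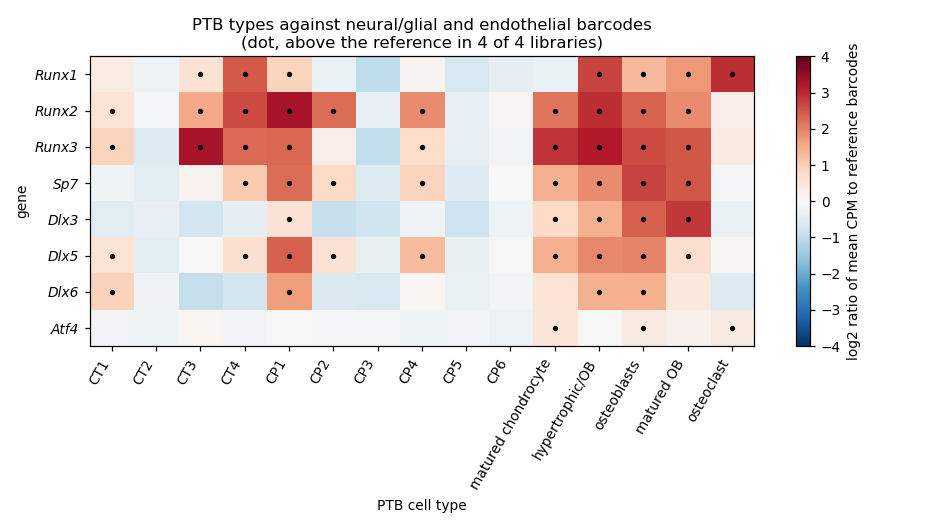
Ratio of each gene's mean CPM in a PTB type to that in reference barcodes with neural and glial or endothelial markers, as colour on a log2 scale (red above, blue below); a dot marks a type above the reference in 4 of 4 libraries. With this reference all 8 genes carry a dot in osteoblasts, none does in CT2, CP3, CP5 and CP6, and the deepest reds are Runx3 in CT3 (9.78-fold) and Runx2 in CP1 (9.73-fold).

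The share of nuclei with at least 1 UMI was compared after thinning every nucleus to 2000 UMIs, which left out 37 to 309 nuclei per class. Runx2 was found in 98.5% ± 0.175 of osteoblasts, 99.4% ± 0.182 of hypertrophic chondrocyte/osteoblasts and 97.0% ± 0.996 of matured osteoblasts (SD over 4 libraries). Osteoclasts, which should lack it, had 57.1% ± 3.26, and CP5 had 47.4% ± 6.15. The part of free RNA in these shares was not tested. Sp7 was found in 49.0% ± 3.02 of osteoblasts and 42.8% ± 4.40 of matured osteoblasts, against 31.1% ± 1.60 of hypertrophic chondrocyte/osteoblasts, 17.3% ± 1.39 of CPs and 8.26% ± 2.07 of osteoclasts. Without thinning, the shares for Sp7 were 76.9% in osteoblasts and 20.7% in osteoclasts, whose median depths were 4339.5 to 5356 and 4963 to 7105 UMIs. Dlx3 was found in 8.77% ± 1.57 of matured osteoblasts, 7.07% ± 1.01 of osteoblasts and 1.06% ± 0.607 of osteoclasts. Dlx5 was found in 15.6% ± 2.77 of CP1 nuclei and in 11.4% ± 2.11 of osteoblasts. Runx1 was found in 69.4% ± 2.20 of osteoclasts and 52.1% ± 3.44 of hypertrophic chondrocyte/osteoblasts.

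The genes most like each factor across the 15 types, by Pearson's r of log2(CPM + 5) among 10670 genes, were for 3 of the 8 factors in part genes that overlap it. For Runx2 these were Runx2os2 (r = 0.951), Supt3 (0.925) and Runx2os1 (0.918), all on the opposite strand of the Runx2 gene body. Supt3, a subunit of a histone acetyltransferase complex, shares 37646 bases with Runx2, and stood at 1691 ± 332 CPM in CP1 and 854 ± 120 CPM in osteoblasts. For Dlx6 the first was Dlx6os1 (0.943), which covers all of Dlx6 on the other strand and was at 114 ± 10.9 CPM in CP1 and 72.7 ± 6.91 CPM in osteoblasts, and it was followed by Tbx2 (0.914) and Tmem59 (0.866). For Runx1 the first was Gm11476 (0.941), the second Gm26626 (0.932), inside Runx1, and the third Map4k4 (0.927). Gm11476, Map4k4, Tbx2 and Tmem59 do not overlap the factor they follow. The sources used here do not state whether the counting used strand, so the reads of such pairs may not be separated. Sp7 was followed most closely by Mef2c (0.975), a MADS-box factor of bone and muscle, Gm26930 (0.949) and A430106G13Rik (0.948), and Dlx3 by Ncf1 (0.984), Galnt3 (0.978), an enzyme that protects the phosphate hormone FGF23, and Rhbdl2 (0.971). Dlx5 was nearest to Kcnma1 (0.918), Fat3 (0.917) and Zfp207 (0.911). Runx3 was nearest to Slc30a5 (0.915), Faf2 (0.902) and Lmo7 (0.892), and Atf4 to Cog2 (0.913), Entpd7 (0.909) and Cab39 (0.893). Within single libraries many of these values were lower. They ran from 0.563 to 0.800 for Cog2, 0.376 to 0.844 for Entpd7 and 0.488 to 0.914 for Cab39 with Atf4, from 0.543 to 0.938 for Gm26626 with Runx1, from 0.739 to 0.943 for Gm11476 with Runx1, from 0.631 to 0.896 for Dlx6os1, 0.732 to 0.933 for Tbx2 and 0.600 to 0.879 for Tmem59 with Dlx6, and from 0.618 to 0.844 for Faf2 with Runx3. For Zfp207 with Dlx5 they ran from 0.727 to 0.861, for Runx2os1 with Runx2 from 0.780 to 0.912, and for the other pairs named here the lowest was at least 0.822. Among the factors themselves, r was 0.855 for Runx2 and Dlx5, 0.851 for Sp7 and Dlx5, 0.849 for Dlx5 and Dlx6, 0.848 for Runx2 and Sp7 and 0.846 for Sp7 and Dlx3. Within single libraries these ran, in the same order, from 0.766 to 0.883, 0.741 to 0.883, 0.638 to 0.827, 0.823 to 0.871 and 0.786 to 0.841, so that for Dlx5 and Dlx6 and for Sp7 and Dlx3 each library was below the value over the means. These values describe 15 types that share 4 libraries.

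Whether the factors differed between genotypes was tested in 4 classes, on UMIs summed per library, with edgeR's quasi-likelihood test over all genes and Benjamini-Hochberg adjustment. A call needed an adjusted p under 0.05 and a change above 1.5-fold. No member was called in any class, and no gene was: 0% of 17894 genes in CPs, 15120 in hypertrophic chondrocyte/osteoblasts, 15573 in osteoblasts and 10508 in matured osteoblasts. Neither did DESeq2 call any gene. At an unadjusted p under 0.05 there were 150 genes (0.838%), 273 (1.81%), 192 (1.23%) and 239 (2.27%), none of them a member. Each share was smaller than the 0.05 that this threshold gives where nothing differs. This fit has no term for batch, so batch differences are part of its spread, and their part in these shares was not tested. With the batch as a block, 4 genes (0.0381%) were called in matured osteoblasts and none in the other classes. These 4, named after their values were seen, were Bpifa1, a secreted airway protein gene (log2 change -3.24, SE 0.275, adjusted p = 7.3e-05 in edgeR), Kcnb2 (-1.35), Nell1 (1.30) and Ptprq (1.34).

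In osteoblasts, all 8 members passed the filter on low counts, and the log2 differences of Tbx1+/- from WT had a median of 0.000332 (0.00896 over all genes tested). Runx2 differed by -0.01 (SE 0.13, 95% interval -0.33 to 0.31) and Sp7 by 0.01 (SE 0.13, interval -0.30 to 0.32), and a 1.5-fold change in either direction lies outside both intervals. Runx1 was at 195 CPM in WT 1 and 225 CPM in Tbx1+/- 1, and at 228 CPM in WT 2 and 261 CPM in Tbx1+/- 2. It was higher in Tbx1+/- within each batch, yet the genotypes overlapped. The difference was 0.19 (SE 0.14, interval -0.14 to 0.52, adjusted p = 1.00 in edgeR). With the batch as a block it was 0.19 (SE 0.09, interval -0.03 to 0.40). Of all genes tested in osteoblasts, 27.2% were higher in Tbx1+/- in both batches, as were 3 of the 8 members (Runx1, Sp7 and Atf4). None was lower in both batches, as 20.1% of all genes were, and none had groups without overlap, beside 13.7% of all genes higher and 10.5% lower. The other differences ran from -0.09 for Runx3 to 0.09 for Atf4, with bounds between -0.57 and 0.58.

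In hypertrophic chondrocyte/osteoblasts, Runx1 was again higher in Tbx1+/- in both batches, by 0.12 (SE 0.16, interval -0.25 to 0.50). Runx2 differed by -0.0020 (interval -0.29 to 0.29) and Dlx6 by -0.44 (SE 0.29, interval -1.13 to 0.25), the largest value there. Dlx6 was at 20.5 CPM in WT 1 against 11.3 CPM in Tbx1+/- 1, and at 12.1 CPM in WT 2 against 13.5 CPM in Tbx1+/- 2, so the batches went opposite ways. Of the 8 members, 3 (Runx1, Sp7 and Atf4) were higher in both batches, where 26.7% of all genes were. None was lower in both batches (22.9% of all genes), and none had groups without overlap (13.9% higher and 12.3% lower).

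In matured osteoblasts, 7 members passed the filter and Dlx6 did not. Dlx5 was at 24.4 and 20.8 CPM in batch 1 and at 31.4 and 23.2 CPM in batch 2, WT first, and differed by -0.35 (SE 0.31, interval -1.05 to 0.34). Runx3 was at 57.1 and 67.9 CPM and at 64.1 and 77.1 CPM, and differed by 0.23 (SE 0.21, interval -0.24 to 0.70). Runx1 and Runx3 were higher in both batches, as 28.1% of all genes were, and Runx2 and Dlx5 lower, as 20.6% were. For Dlx5 and Runx3 the groups did not overlap, as in 12.2% (lower) and 16.7% (higher) of all genes tested there. Sp7 differed by 0.02 (interval -0.43 to 0.47) and Runx2 by -0.09 (interval -0.54 to 0.37).

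In CPs, 4 of the 8 members (Runx1, Runx2, Sp7 and Atf4) were higher in Tbx1+/- in both batches, beside 22.4% of all genes, and Runx1, Runx2 and Sp7 did so without overlap of the groups, beside 9.87%. None was lower in both batches (23.9% of all genes) or lower without overlap (11.2%). Runx2 was at 3642 and 4088 CPM in batch 1 and at 3959 and 3974 CPM in batch 2, WT first. The differences were 0.09 for Runx2 (SE 0.12, interval -0.19 to 0.38), 0.13 for Sp7 (SE 0.10, interval -0.11 to 0.38) and 0.12 for Runx1 (SE 0.10, interval -0.11 to 0.36). CP1, the type richest in Runx2, made up 24.8% of the CPs of Tbx1+/- 1 and 21.3% of those of WT 1, and 20.3% and 20.4% in batch 2. CP3, the lowest type for Runx1 and Sp7, made up less of the CPs in Tbx1+/- in both batches. It was at 9.45% in Tbx1+/- 1 against 12.9% in WT 1, and at 11.7% against 15.4% in batch 2. CP4 made up more, 17.8% against 15.6% in batch 1 and 14.0% against 12.4% in batch 2. The shares of CP1, CP2, CP5 and CP6 went opposite ways in the batches. The part of this makeup in the level over all CPs was not tested. Without CP6, a choice made after seeing the data, the 4 members higher in both batches and the 3 without overlap were the same, beside 22.5% and 9.96% of all genes, and none was lower in both batches (24.2% of all genes) or without overlap (11.7%). None was called (0% of 17554).

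**Figure D4:**
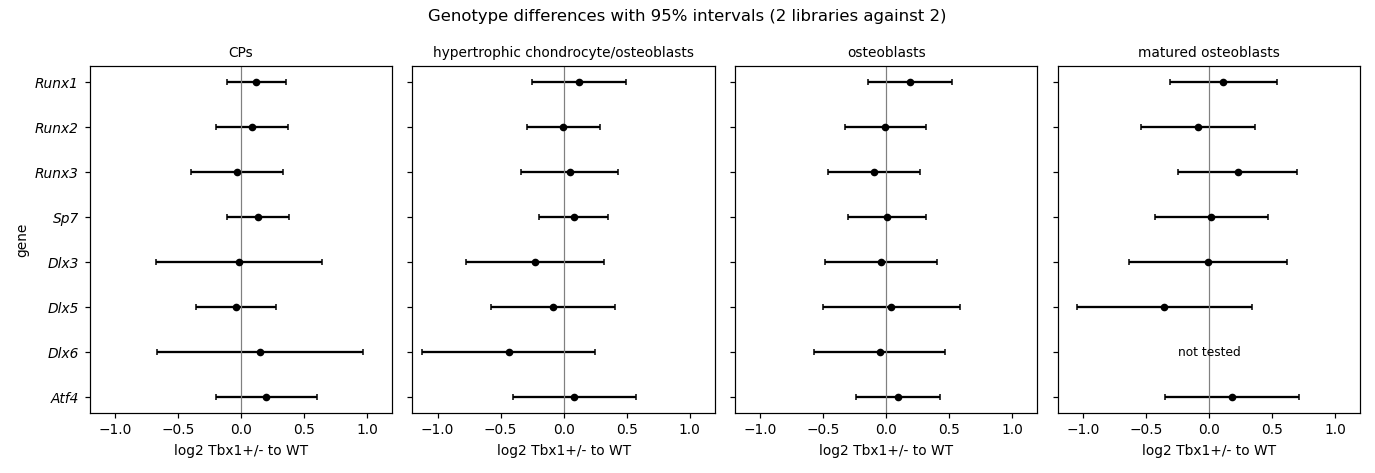
Log2 difference of Tbx1+/- from WT for each factor in the 4 classes tested, with points for edgeR estimates and bars for 95% intervals (2 libraries against 2); Dlx6 was too low for a test in matured osteoblasts. Every interval crosses 0, and the 3 narrowest in each class are those of Runx1, Runx2 and Sp7.

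The difference between osteoblasts and CPs in the genotype change was tested as an interaction, and no member or other gene was called (0% of 17779), by edgeR or by DESeq2. At an unadjusted p under 0.05 there were 628 genes (3.53%), none of them a member. Sp7 gave -0.14 (SE 0.10, interval -0.35 to 0.06) and Runx2 -0.11 (SE 0.08, interval -0.29 to 0.06). The other members gave -0.23 (Dlx6), -0.13 (Atf4), -0.07 (Runx3), -0.03 (Dlx3), 0.05 (Runx1) and 0.05 (Dlx5).

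The partners, regulators and targets of these factors were taken as lists. Of 14 RUNX partners and regulators, all tested in osteoblasts, none was called, and the median difference was 0.04. Zfp521, a repressor of Runx2 activity, was at 304 ± 30.1 CPM in osteoblasts and Cbfb, the common RUNX partner, at 221 ± 7.67 CPM. Their differences were -0.18 (SE 0.12) and 0.04 (SE 0.10). Of 5 further DLX and MSX genes, only Dlx4 was high enough to be tested in osteoblasts, at 1.28 ± 0.249 CPM. Dlx1 (1.09 ± 0.481 CPM) and Msx1 (0.902 ± 0.383 CPM) came next.

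Of 17 genes of the ATF4 pathway, which holds the kinases that raise ATF4 and the genes it switches on, 15 were tested in osteoblasts and none was called, with a median difference of 0.10. The ribosomal S6 kinase gene Rps6ka3, whose product phosphorylates ATF4 in osteoblasts, was at 251 ± 21.3 CPM there, and the eIF2α kinase genes Eif2ak3 and Eif2ak4 at 94.5 ± 2.84 and 75.1 ± 5.36 CPM. At an unadjusted p under 0.05 were 2 genes of the list, named here after their values were seen, both higher: Atf3 (1.10) and Eif2ak2 (0.37), beside 1.23% of all genes. With DESeq2, 0 genes of the list were.

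Of 16 genes listed as RUNX2 and SP7 targets, the matrix and mineral genes of osteoblasts, none was called in osteoblasts, and the median difference was -0.26 against 0.00896 over all genes. Type I collagen Col1a1 was at 13717 CPM in WT 1, 8106 CPM in Tbx1+/- 1, 7993 CPM in WT 2 and 7580 CPM in Tbx1+/- 2. Bone sialoprotein Ibsp was at 10761, 4544, 5076 and 5282 CPM in the same order. WT 1 stood apart for both. Within batch 1, 13 of the 16 targets were lower in Tbx1+/- osteoblasts (median -0.43). Within batch 2, 4 of the 16 were (median 0.17), so the directions were opposite. The share of all genes lower within a single batch is not given. Summed, the list was at 42551 CPM in WT 1 and at 25502 to 26258 CPM in the other 3 libraries. Most of these targets, Col1a1 and Ibsp among them, are also in the list of 12 osteoblast markers. The high sums of both lists in WT 1 are therefore not separate results. In osteoblasts of WT 1, where the target sum was highest, Runx2 and Sp7 were each at the lowest of their 4 values, 4471 and 323 CPM. Tbx1+/- 1 was close, at 4608 and 331 CPM. In matured osteoblasts the target sum was also highest in WT 1, at 51939 CPM. There Sp7 was lowest in WT 1 (255 CPM), but Runx2 was lower in Tbx1+/- 1 (3183 CPM) than in WT 1 (3333 CPM). A relation of these levels to the target sum was not tested. WT 1 also had the most haemoglobin RNA and mitochondrial UMIs, and their part in the target levels was not tested. In the interaction test 8 of the 16 were at an unadjusted p under 0.05, all lower in osteoblasts than the CPs' change, beside 3.53% of all genes, and none was called. With DESeq2 4 of the 16 were, and with the batch as a block 0 were. The interaction values given above were negative for Runx2 and Sp7, and also for Dlx6, Atf4, Runx3 and Dlx3. None of these was at an unadjusted p under 0.05.

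**Figure D5:**
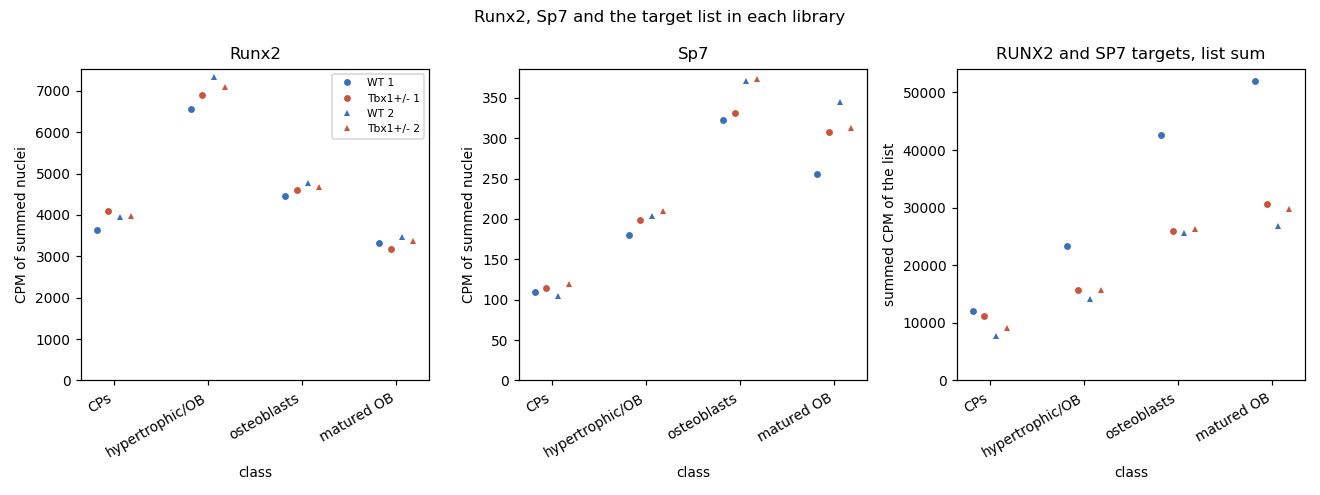
Runx2, Sp7 and the summed RUNX2 and SP7 targets that passed the filter, in CPM per library (circles, libraries 1; triangles, libraries 2; blue, WT; red, Tbx1+/-) for the 4 classes tested, on axes from 0. The target sum of WT 1 stands at 42551 CPM in osteoblasts, above the other 3 libraries. Runx2 and Sp7 of that library lie lowest in osteoblasts, close to Tbx1+/- 1. In matured osteoblasts Runx2 is lowest in Tbx1+/- 1.

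Outside the annotated PTB types, the factors were read in the PF/F and in the PTB barcodes left out of the annotation. Over 48237 annotated PF/F nuclei, Runx2 was at 55.3 ± 8.88 CPM, Atf4 at 30.9 ± 1.24 CPM and Runx1 at 4.66 ± 1.32 CPM. Sp7 (0.559 ± 0.0930 CPM), Dlx3 (0.191 ± 0.0529 CPM), Runx3 (0.117 ± 0.0997 CPM) and Dlx6 (0.117 ± 0.0492 CPM) were near 0, and Dlx5 had 1 UMI in all, in WT 2. Single PF/F types stood above these averages: Runx1 was at 463 ± 121 CPM in immune nuclei, above its mean in PTB osteoblasts, and Atf4 at 46.3 ± 2.68 CPM in endothelial nuclei and 46.1 ± 7.67 CPM in immune nuclei, above its mean in CP6. In PTB barcodes left out of the annotation, Runx1 was at 238 CPM and Runx2 at 1799 CPM among the 8984 with immune markers, which need not be immune cells, as given above. By mean CPM, no marker group of these barcodes exceeded the highest annotated type for any of the 8 factors.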

How the data were processed

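Raw UMI counts per gene and barcode, as deposited, were made by the authors with Cell Ranger 7.0.0 in intron mode on mm10 (GRCm38); free RNA was not subtracted from them here. Cell types are the authors' deposited annotation. No doublet caller was run. Genotypes and replicate numbers come from the labels. The p-values of the fit without a block measure the spread between libraries of a genotype, each a pool of 5 mice from a separate batch. In that spread, pool and batch are not separated. UMIs of annotated nuclei were summed per library and type (Python 3.11.15, scipy 1.17.1), and CPM uses the total of all genes in that sum. Genotypes were compared with edgeR 4.0.16 (filterByExpr, TMM, quasi-likelihood test) in R 4.3.3, 2 libraries against 2, without a block, and with DESeq2 1.42.0 as an alternative; the tests were tried on simulated counts. Standard errors are the log2 change divided by the root of its F statistic.

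Same-numbered libraries were taken to come from the same batch of animals. The study describes separate batches with pools of each genotype, but its methods do not tie library numbers to a batch. The deviations of library 1 from library 2 in both genotypes correlated over genes (r = 0.514 in CPs, 0.427 in hypertrophic chondrocyte/osteoblasts, 0.421 in osteoblasts and 0.250 in matured osteoblasts). Thinned shares are the expected share with a UMI among 2000 drawn from each nucleus. The members and gene lists were chosen with earlier results of these data known. Named genes are the 8 members, the 3 most alike per member, the 3 list genes highest in osteoblasts, any called list gene and markers needed to check a type; a gene that the rule names is not reported here. Coordinates are from GENCODE vM21, promoter windows from RefSeq for Runx1, Runx2, Runx3 and Atf4; Sp7, Dlx3, Dlx5 and Dlx6 had no entry. Marker lists for osteoclast, immune, endothelial, muscle, epithelial, neural, erythroid and connective tissue cells were also tested for genotype. None could hold a called gene in the fits without a block, since these called no gene.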

Additional observations from a re-analysis of the deposited data

Results flagged for a closer look

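There were 2 results in PF/F nuclei, which the comparisons above do not use, that stood out because the type was above every other PF/F type in each of the 4 libraries, with more than 3 UMIs in all. Runx1 was at 463 ± 121 CPM in the 385 PF/F immune nuclei, with 335 to 592 CPM over the libraries. Dlx3 was at 1.47 ± 0.316 CPM in the 1299 Purkinje nuclei, from 2 to 5 UMIs a library. Groups of 2 libraries are too small to test single libraries as outliers. No member had a genotype change in osteoblasts opposite to that in CPs in both batches.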

How the results depend on the processing

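Over all alternatives the 8 factors gave 445 log2 differences between -0.74 and 0.52, with a lowest adjusted p of 0.828 (edgeR or DESeq2), and none was called. Limits are set by 2 libraries per genotype and, for Dlx3, Dlx6 and matured chondrocytes, by few UMIs. Without a filter on low counts, 17 genes were called in hypertrophic chondrocyte/osteoblasts, 9 in matured osteoblasts and 17 in the difference of osteoblasts from CPs, and with the replicate block 4 in matured osteoblasts; the block changed no other call, and the cause was not tested. Leaving out a library gave 0 to 2 called genes in hypertrophic chondrocyte/osteoblasts (2 without WT 2), 0 to 33 in osteoblasts (33 without WT 2, 1 without WT 1 and 1 without Tbx1+/- 1), 1 to 24 in matured osteoblasts (24 without WT 2, 15 without Tbx1+/- 1, 5 without Tbx1+/- 2 and 1 without WT 1) and 2 to 28 in the difference of osteoblasts from CPs (28 without Tbx1+/- 1, 8 without Tbx1+/- 2, 4 without WT 1 and 2 without WT 2), where the library left alone in its genotype is assumed to vary like the pair. Of the 8 factors, 2 were highest in an osteoblast type (hypertrophic included), and 2 to 3 when a library was left out, since Runx3 turned from CT3 to hypertrophic chondrocyte/osteoblasts without Tbx1+/- 2; Atf4 turned from matured chondrocytes to osteoclasts without the 8% of nuclei with most UMIs. Runx2 in osteoblasts was at 4786 CPM in nuclei with at least 2000 detected genes, 4444 CPM without the 8% of nuclei with most UMIs and 4417 CPM as a mean over nuclei. Without thinning, the shares of osteoblasts with a UMI were 47.9% for Runx1, 99.5% for Runx2, 27.3% for Runx3, 76.9% for Sp7, 16.6% for Dlx3, 25.6% for Dlx5, 7.42% for Dlx6 and 27.3% for Atf4. The sign of small log2 differences turned in nuclei with at least 2000 detected genes for Dlx5 in CPs (0.0037), Runx2 in hypertrophic chondrocyte/osteoblasts (0.010) and Runx3 in the difference of osteoblasts from CPs (0.0045), and without the nuclei with most UMIs for Runx3 (0.014) and Dlx3 (0.023) in CPs and for Runx2 (0.0023) and Sp7 (-0.026) in osteoblasts. For Runx2 in hypertrophic chondrocyte/osteoblasts it also turned with RLE size factors (0.0020), without the filter (0.017) and with DESeq2 (0.0020). Signs that turned when a library was left out are given by their ranges. In CPs these were Runx3 from -0.17 to 0.067, Dlx3 from -0.32 to 0.21, Dlx5 from -0.15 to 0.034, Dlx6 from -0.40 to 0.52 and Atf4 from -0.012 to 0.36. In hypertrophic chondrocyte/osteoblasts these were Runx1 from -0.025 to 0.30, Runx2 from -0.072 to 0.078, Runx3 from -0.16 to 0.29, Dlx3 from -0.49 to 0.059, Dlx5 from -0.35 to 0.17, Dlx6 from -0.74 to 0.023 and Atf4 from -0.16 to 0.31. In osteoblasts these were Runx2 from -0.059 to 0.024, Runx3 from -0.29 to 0.11, Sp7 from -0.10 to 0.099, Dlx3 from -0.23 to 0.14, Dlx5 from -0.31 to 0.32, Dlx6 from -0.27 to 0.12 and Atf4 from -0.040 to 0.20. In matured osteoblasts these were Runx1 from -0.040 to 0.26, Sp7 from -0.19 to 0.25, Dlx3 from -0.30 to 0.29 and Atf4 from -0.012 to 0.35. In the difference of osteoblasts from CPs these were Runx1 from -0.052 to 0.13, Runx3 from -0.21 to 0.071, Dlx3 from -0.43 to 0.42, Dlx5 from -0.19 to 0.25 and Dlx6 from -0.44 to 0.088.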
